A study of Caenorhabditis elegans with 2 samples.

Results

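The DM-domain genes of Caenorhabditis elegans were examined in a chromatin immunoprecipitation sequencing (ChIP-seq) map of 1 of their own products, the transcription factor DMD-4. The 10 genes were taken by name from the Ensembl annotation of assembly WBcel235, which is ce11: mab-3, mab-23, dmd-3, dmd-4, dmd-5, dmd-6, dmd-7, dmd-8, dmd-9 and dmd-10, of 19973 protein-coding genes on the nuclear chromosomes. For each gene a window was taken that ran from 5000 bp upstream of the gene start to the gene end, and a region belonged to the window when its summit lay inside. In total 47 of 30000 candidate regions of the pooled list belonged to these windows, 10 to dmd-4 and 37 to the other members.

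The material was 1 group of 2 biological replicates of whole hermaphrodite late embryos, taken 5 h after the bleaching that synchronized them. All worms were of strain OP418, carried the unc-119(tm4063) III mutation and the transgene wgIs418, and made DMD-4 with a C-terminal GFP-FLAG tag. Sonicated chromatin was enriched with an anti-GFP antibody. No second condition was part of the study, the promoter that drives the transgene is not named in the labels, and a whole embryo mixes all its cell types. The labels list no mutation of the chromosomal dmd-4, so dmd-4 DNA was present in the chromosome and in the transgene, while the labels place no other member in the transgene.

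The DM domain is a DNA-binding domain with intertwined zinc-binding sites, named after doublesex of Drosophila and mab-3 of the worm. Proteins with this domain are known above all for making cells differ between the sexes. In the worm, mab-3 acts in male tail rays and represses yolk genes in the male intestine, dmd-3 acts with mab-3 in shaping the male tail tip, mab-23 acts in male tail and mating structures, and dmd-5 acts in male neurons. DMD-4 is known from sensory neurons and interneurons, where its protein is kept or lost according to sex.

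In the windows of the 10 members, dmd-4 itself had the strongest signal and the only reproducible peaks, a count that depended on the reach of the window, since peaks lay 5410 bp upstream of dmd-6 and 7929 bp upstream of dmd-5. Reproducible peaks are the 652 regions that the authors kept with the irreproducible discovery rate (IDR) procedure, and the signal is the deposited value of each region in arbitrary units relative to control, comparable within a list. The dmd-4 window held 4 reproducible peaks, and the windows of the other 9 members held 0. Over all candidate regions 2.17% were reproducible peaks, and over all protein-coding genes 5.21% had at least 1 in the same kind of window. With 1 of 10 members, the number of DM-domain genes with a peak was thus too small to read against that share, and the count of 4 at a single gene was the uncommon value. At least 4 such peaks were found in the windows of 2 genes, or 0.01% of all, dmd-4 and pqn-41. The pqn-41 window was 38613 bp long and held 5, against 9550 bp for dmd-4. The count of 4 includes a pair of overlapping peaks, and as separate loci dmd-4 had 3. A count of 3 peaks, without merging, was found at T28F4.1, Y62F5A.12, lin-14, mdt-8, ppfr-1, ttr-20 and unc-41.

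The sequences around the summits of the 3 separate reproducible loci of dmd-4 are shown first, since these carry the strongest signals in the windows. They are followed by the weak dmd-4 region with the DM core, and by the strongest regions of dmd-5 and dmd-7, the next members in order. Each is 201 bases of RefSeq WBcel235 (ce11), 100 either side of the summit, read 5′ to 3′ on the strand of the gene. The labels give the place of the summit only. The sequence at the further intron position includes 50 coding bases, and the dmd-5 sequence includes 19. Capitals mark exact matches, on either strand, to the DM core ACATTGT, to the inverted repeat ACAATATTGT, to GAGAGA, to CGCACA and to GTTCGA, which belongs to the B box inside tRNA genes.
dmd-4, 216 bp upstream, X:14861968-14862168, minus strand: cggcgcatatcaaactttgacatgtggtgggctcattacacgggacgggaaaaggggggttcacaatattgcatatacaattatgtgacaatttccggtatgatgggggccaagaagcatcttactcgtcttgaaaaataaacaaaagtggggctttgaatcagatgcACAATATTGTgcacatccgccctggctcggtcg
dmd-4, intron, X:14859087-14859287, minus strand: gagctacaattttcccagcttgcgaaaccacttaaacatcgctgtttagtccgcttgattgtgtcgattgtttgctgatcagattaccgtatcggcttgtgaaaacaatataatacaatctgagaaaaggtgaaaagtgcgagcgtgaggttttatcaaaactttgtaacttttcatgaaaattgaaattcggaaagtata
dmd-4, further intron position, X:14857989-14858189, minus strand: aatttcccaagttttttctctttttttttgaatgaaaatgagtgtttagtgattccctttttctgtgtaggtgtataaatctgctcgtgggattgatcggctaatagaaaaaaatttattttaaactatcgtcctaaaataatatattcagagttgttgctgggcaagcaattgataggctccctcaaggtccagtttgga
dmd-4, weak region, X:14859376-14859576, minus strand: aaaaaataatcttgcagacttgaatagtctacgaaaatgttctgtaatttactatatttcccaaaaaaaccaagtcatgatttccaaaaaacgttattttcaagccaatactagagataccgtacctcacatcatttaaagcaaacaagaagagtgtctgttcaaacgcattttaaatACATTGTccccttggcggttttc
dmd-5, intron with a tRNA gene, II:5772917-5773117, minus strand: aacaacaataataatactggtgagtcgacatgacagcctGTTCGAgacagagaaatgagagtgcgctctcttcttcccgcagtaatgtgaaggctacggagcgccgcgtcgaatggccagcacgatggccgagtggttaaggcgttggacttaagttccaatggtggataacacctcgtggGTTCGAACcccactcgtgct
dmd-7, 2174 bp upstream, V:6244657-6244857, plus strand: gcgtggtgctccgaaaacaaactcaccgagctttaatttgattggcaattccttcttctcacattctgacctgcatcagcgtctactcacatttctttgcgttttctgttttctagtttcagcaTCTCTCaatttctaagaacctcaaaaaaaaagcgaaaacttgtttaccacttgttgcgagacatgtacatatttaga

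The dmd-4 gene lies at X:14857303-14861852 on the minus strand and has 1 annotated transcript start. Its strongest region, X:14861843-14862292, had a pooled signal of 211.5 and pooled rank 114, with the summit 216 bp upstream of the gene start and inside the ncRNA gene C27C12.10 of the opposite strand. In the replicates' own lists the strongest dmd-4 region had rank 111 with a signal of 102.2 in replicate 1 and rank 126 with 111.4 in replicate 2. Both replicates thus placed it near the same rank. In the sequence shown for this region, the 10 bases in capitals are the middle of a perfect palindrome of 16 bases, tgcacaatattgtgca, whose centre lay 143 bp upstream of the gene start and 72.5 bp from the summit.

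The other 3 reproducible peaks of dmd-4 were weaker. An intron region at X:14858962-14859411 had a pooled signal of 138.8 at rank 326, and its ranks were 370 in replicate 1 and 420 in replicate 2. A region further into the gene, X:14857864-14858313, had a signal of 118.3 at rank 490, with rank 899 in replicate 1 and 459 in replicate 2, so only replicate 2 put it within its top 652. The fourth peak, X:14862068-14862517, overlapped the strongest by 225 bp and had a signal of 113.8 at rank 545. The replicate regions nearest to its summit stood far apart, with rank 221 and a signal of 74.1 in replicate 1 and rank 7893 and a signal of 29.2 in replicate 2. Counted without overlap, the 4 peaks formed 3 loci. At a q of at most 0.05, which 1.69% of all candidates reached, 3 of the 4 remained, all but the overlapping region.

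The remaining 6 candidates of dmd-4 fell into 2 levels. A region 1605 bp upstream, 152 bp from the neighbouring gene C27C12.3, had a signal of 81.7 at pooled rank 1481. A region 4034 bp upstream, 42 bp from the same neighbouring gene, had 80.0 at rank 1614. The other 4 had signals from 37.0 to 42.2, around the median of all candidates, 41.1. Of the 10 candidates 7 lay upstream, 3 in introns and 0 in exons, 2 had the summit inside C27C12.3, and 0 lay within 500 bp of a tRNA, snoRNA, snRNA or rRNA gene. The median signal of the 10 was 80.9, against 40.8 for the 37 regions of the other members.

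**Figure D1:**
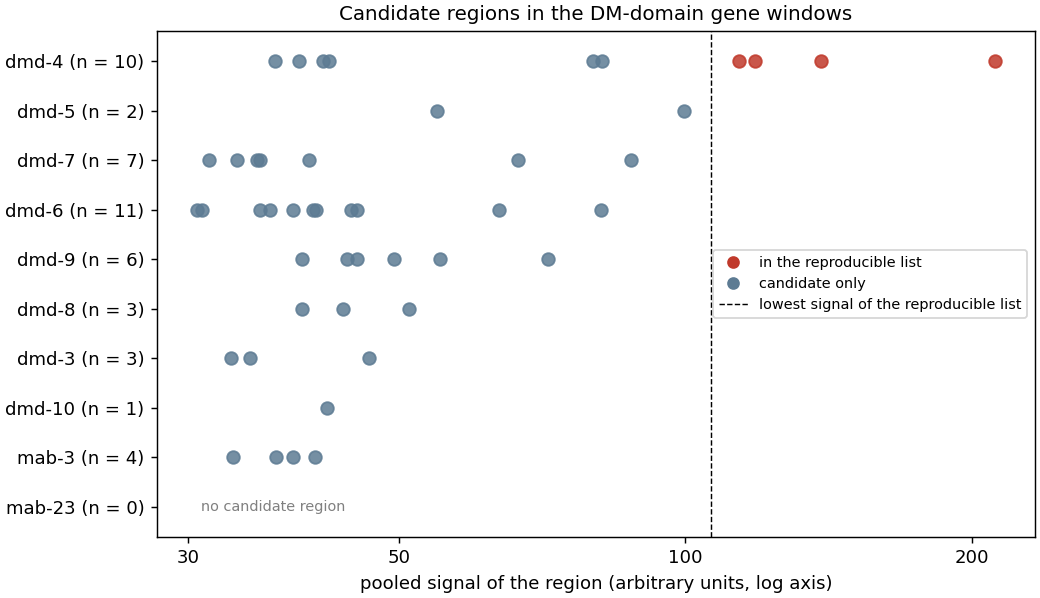
Pooled signal of every candidate region in the windows of the 10 DM-domain genes, in arbitrary units on a log axis, with genes ordered by their strongest region and n the number of regions. The dashed line is the lowest signal of the reproducible list, 106.4, and the 4 regions past it are all at dmd-4.

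Of the known regulators of male development, dmd-5 came closest to the reproducible list. This gene, at II:5772054-5774220 on the minus strand, had 2 candidates. The stronger, II:5772792-5773241, had a pooled signal of 99.7 at rank 771, just outside the list, whose lowest signal was 106.4, and it ranked 623 in replicate 1 and 823 in replicate 2. Its summit lay in an intron of dmd-5, 18 bp from the tRNA gene WBGene00022984 (II:5772916-5772999, minus strand), and in the sequence above the capitals near the 3′ end lie in that tRNA gene. Of the 47 regions it alone had a structural RNA gene within 500 bp, and 68.0% of the 30-base stretches of its 201 bases occurred once in the genome, the lowest value of the 47. Over all nuclear candidates 2.42% had such a gene within 500 bp, and over the nuclear reproducible peaks 25.2%. In pooled ranks down to 1138, the number of regions in the authors' reproducible list for the older build ce10, dmd-5 joined dmd-4, so that 2 of 10 members had such a region beside 8.48% of all genes. The top 652 of replicate 1 likewise held regions of dmd-4 and dmd-5 (5.19% of all genes), and the top 652 of replicate 2 held regions of dmd-4 alone (5.09%). The weaker dmd-5 candidate, 99 bp upstream of the gene start and inside the divergent gene F10C1.1, had a signal of 54.8 at rank 6386, with ranks 7014 and 8594 in replicates 1 and 2.

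The genes mab-3, dmd-3 and mab-23 had low values or none. At mab-3 (II:9732137-9738035, plus strand) there were 4 candidates with signals from 33.5 to 40.8, all below the median of all candidates. The strongest, 3485 bp upstream at pooled rank 15325, matched rank 9725 in replicate 1 and no candidate of replicate 2, and 1 of the 4 matched candidates in both replicates. At dmd-3 (V:19650025-19655251, minus strand) there were 3 candidates with signals of 46.5, 34.9 and 33.3. The strongest lay in an intron 337 bp into the gene, and the next had its summit at the gene start itself. The third, 4430 bp upstream, matched no candidate in either replicate, the only such case among the 47. At mab-23 (V:10633058-10635525, plus strand) no candidate lay in the window in the pooled list or in either replicate's list. Each list holds only its 30000 best regions, so this says that no region there reached the lowest pooled signal listed, 29.4.

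The 5 members for which no role is given here, dmd-6, dmd-7, dmd-8, dmd-9 and dmd-10, had 28 candidates and no reproducible peak. At dmd-7 (V:6246931-6252458, plus strand) the strongest region, V:6244532-6244981, lay 2174 bp upstream with a signal of 87.7 at rank 1151, with ranks 1580 and 1938 in replicates 1 and 2. Another dmd-7 region, 141 bp upstream, had 66.7 at rank 3173, with rank 9322 in replicate 1 and 2028 in replicate 2. The other 5 dmd-7 regions had signals from 31.6 to 40.2.

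The gene dmd-6 (IV:14616603-14623963, plus strand) had the most candidates of the family, 11, but with lower signals. Its window also holds 20 piRNA genes. The strongest region, IV:14622310-14622759, had a signal of 81.5 at rank 1502, with rank 887 in replicate 1 and 5721 in replicate 2. The next, IV:14619221-14619670, had 63.6 at rank 3762, with ranks 2612 and 7011. The third, IV:14616383-14616832, had 45.2 at rank 11647, with ranks 6662 and 17848. These 3 summits lay within 5 bp of 3 of the 4 annotated transcript starts of dmd-6, at distances of -4, -5 and 5 bp. Of all nuclear candidates 1.12% lay within 5 bp of a protein-coding transcript start, but this limit equals the largest of the 3 distances. From the gene start, the pooled summits lay at 5932, 2843 and 5 bp. The matching summits lay at 5922, 2830 and -48 bp in replicate 1. In replicate 2 they lay at 5758 bp, with a second region at 5969 bp, and at 2887 and 3 bp. Of these replicate summits only the last was within 5 bp of the same transcript start. All 3 dmd-6 regions ranked higher in replicate 1 than in replicate 2.

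**Figure D2:**
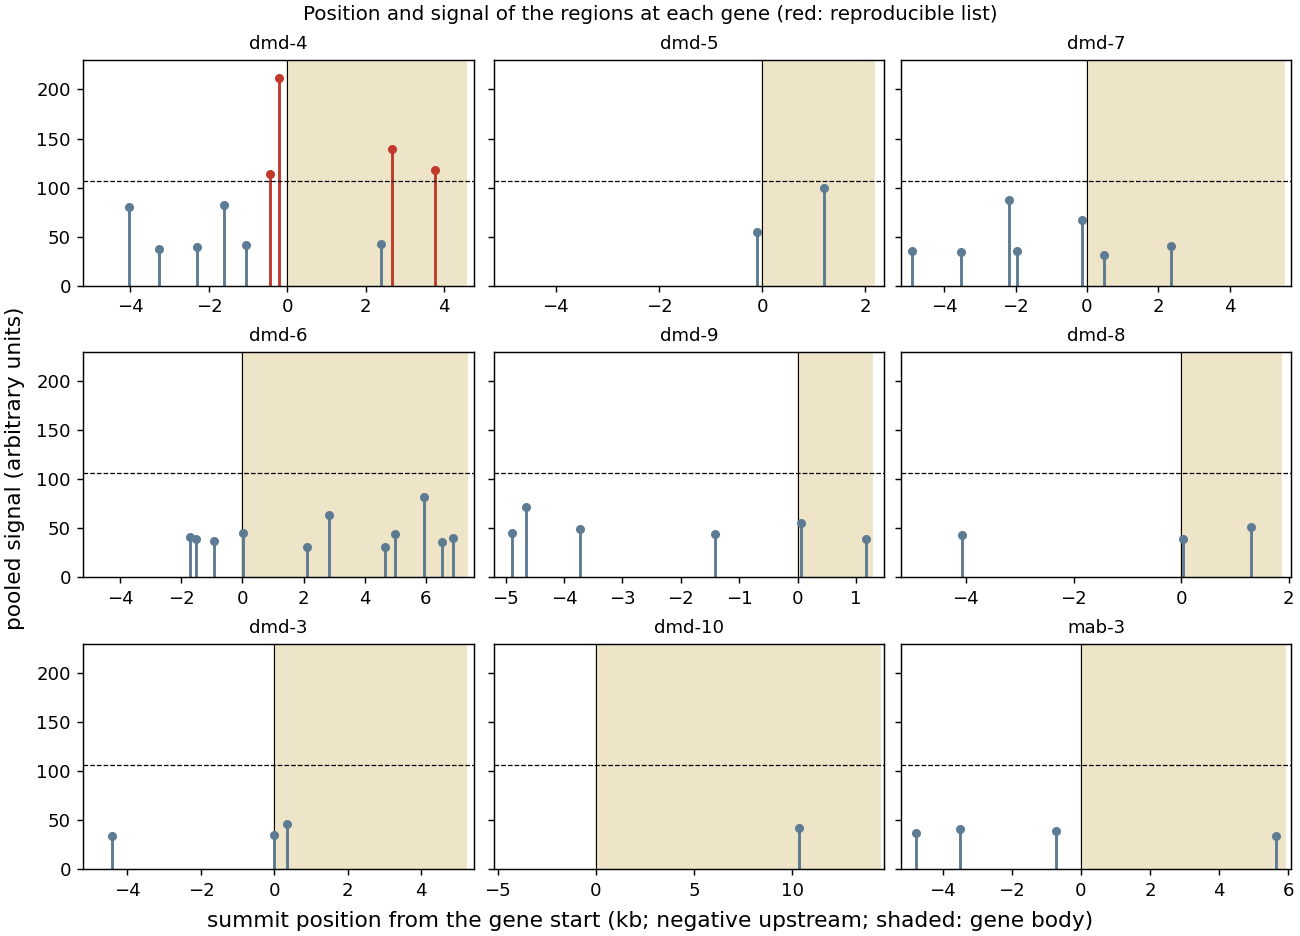
Summit position from the gene start in kb (negative upstream, gene body shaded) and pooled signal in arbitrary units for the 9 members with a candidate, with reproducible peaks in red and the lowest signal of that list dashed. The dmd-4 peaks lie at 216 and 441 bp upstream and at 2665 and 3763 bp into the gene. The 3 strongest dmd-6 regions have pooled summits close to transcript starts inside the gene or at its start.

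At dmd-9 (IV:3253261-3254543, minus strand) 6 candidates had signals from 39.6 to 71.7. The strongest, 4651 bp upstream at rank 2438, lay inside the divergent gene T26C12.1 and ranked 1558 in replicate 1 and 5624 in replicate 2. At dmd-8 (V:334601-336450, minus strand) 3 candidates had signals of 51.2, 43.7 and 39.6. At dmd-10 (V:13222116-13236607, minus strand), the longest gene of the family at 14492 bp, there was 1 candidate, in an intron, with a signal of 42.0 and a match in replicate 2 only. The numbers of regions per kb of window ran from 1.05 at dmd-4, 0.955 at dmd-9 and 0.890 at dmd-6 to 0.0513 at dmd-10 and 0 at mab-23, against a median of 0.266 over all protein-coding genes.

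The edge of the window at 5000 bp decided which members had a reproducible peak. With 10000 bp upstream, an alternative chosen after seeing the data, 3 of 10 members had one, dmd-4 with 5, dmd-5 with 1 and dmd-6 with 1, beside 7.73% of all protein-coding genes. The dmd-6 peak, IV:14610968-14611417, lay only 410 bp outside the window, with a signal of 117.2 at rank 508 and ranks 713 and 438 in replicates 1 and 2. The dmd-5 peak, II:5781924-5782373, lay 371 bp from K05F1.6, with a signal of 146.9 at rank 282 and ranks 314 and 200. Both had a tRNA gene near the summit, at 114 bp for the dmd-6 peak and 63 bp for the dmd-5 peak, and the part of the tRNA genes in these signals was not tested. The added dmd-4 peak, X:14868313-14868762, lay 6686 bp upstream and 238 bp from F31F6.1, with a signal of 144.6 at rank 290 and the nearest structural RNA gene 63590 bp away. Of the regions nearest to the edge, one inside, 4896 bp upstream of dmd-7, had a signal of 35.4, and one outside, 5210 bp upstream of dmd-6, had 71.0.

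In the windows of 5000 bp upstream, the strongest region set dmd-4 apart from the rest, while most of the other members could not be ordered. In the pooled list the strongest dmd-4 region had 2.12 times the signal of the strongest region of the other 9 members, the dmd-5 region of 99.7. The ratio was 2.00 within replicate 1 and 2.03 within replicate 2, and it was 1.44 with 10000 bp upstream, where the strongest other region was the dmd-5 peak of 146.9. The order after dmd-4 was dmd-5, dmd-7, dmd-6, dmd-9, dmd-8, dmd-3, dmd-10 and mab-3 in the pooled list. In both replicates dmd-4 and dmd-5 also held the first and the second place, and dmd-3 the seventh, while the other 6 members with a candidate changed place in at least 1 replicate. The strongest dmd-6 signal was above that of dmd-7 in replicate 1, with 45.9 against 39.1, and below it in replicate 2, with 32.1 against 43.2. The strongest signals of mab-3, dmd-3, dmd-8 and dmd-10 lay between 24.0 and 25.3 in replicate 1 and between 23.4 and 27.4 in replicate 2, and neither list separated these 4. No test was made, since 2 replicates of 1 group allow none and regions are not replicates.

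**Figure D3:**
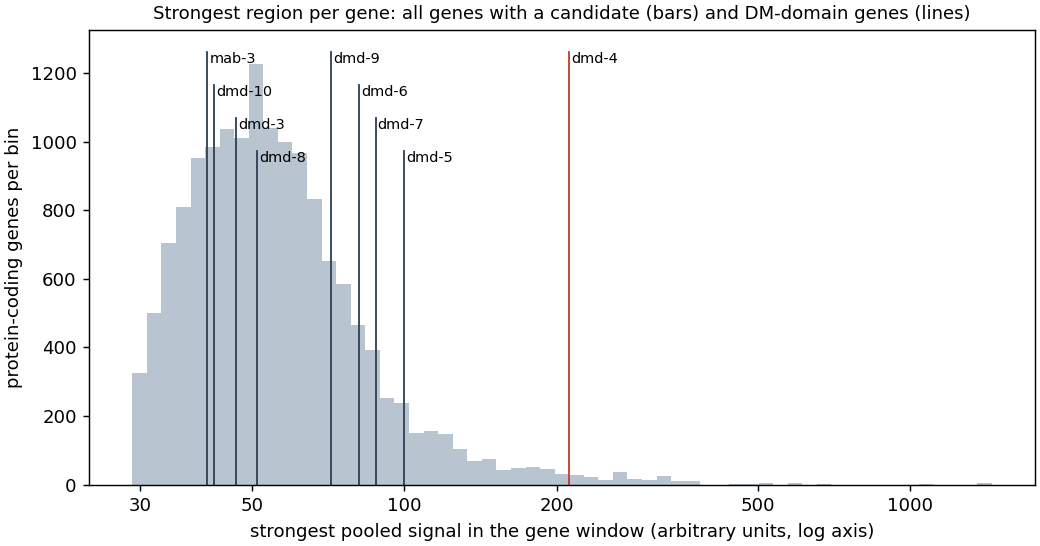
Strongest pooled signal in the window, in arbitrary units on a log axis, for the 15108 protein-coding genes with a candidate (bars) and for 9 DM-domain genes (lines). The dmd-4 line at 211.5 lies in the upper tail of the bars and the other 8 lines lie between 40.8 and 99.7.

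Against all protein-coding genes the members were spread over the whole range. A candidate was present in the window of 9 of 10 members, against 75.6% of all genes. Of the 15108 genes with a candidate, 1.32% had a strongest region at least as strong as that of dmd-4. The same share was 7.93% for dmd-5, 11.3% for dmd-7, 14.4% for dmd-6 and 21.9% for dmd-9. It was 53.7% for dmd-8, 64.3% for dmd-3, 74.2% for dmd-10 and 77.3% for mab-3. The median strongest signal over all genes with a candidate was 52.7, so 5 members, dmd-4 among them, lay above the median gene and 4 below. At least 10 candidates were present at dmd-4 and dmd-6, and at 1.82% of all genes. These shares were not adjusted for window length, and a longer window can hold more regions. The windows of the members ran from 6283 bp at dmd-9 to 19492 bp at dmd-10, against a median of 7027 bp over all protein-coding genes.

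Matching to the replicate lists was close to that of all pooled candidates, so these counts are no result about the members. Of the 47 regions 32 overlapped a candidate of both replicates by at least 1 bp, 7 of 10 at dmd-4 and 25 of 37 at the other members, against 63.5% of all pooled candidates. A further 6 matched replicate 1 only, 8 matched replicate 2 only and 1 matched neither. Pooled regions that overlap each other can match the same replicate region, so these counts are not independent.

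**Figure D4:**
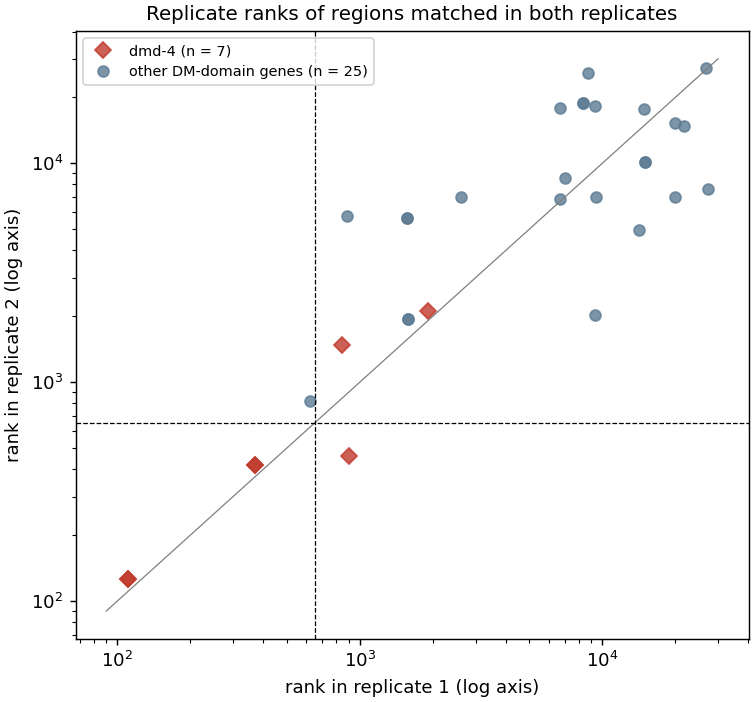
Rank in replicate 1 against rank in replicate 2, both on log axes, for the 32 regions matched in both replicates (best ranked overlapping region, with several pooled regions sharing a point). The dashed lines mark rank 652, and the strongest dmd-4 region lies at 111 and 126, near the diagonal, while lower ranks scatter widely.

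Strong regions around dmd-4 reached beyond the gene. Within 50 kb of the gene there were 51 candidates, 9 of them within pooled rank 1138, as were 3.79% of all candidates. Around the other 9 members the number of candidates ran from 11 to 56 with a median of 33, and 0 to 4 were within that rank. The number of candidates around dmd-4 was thus inside the range of the family, and the number of strong ones was above it. However, 4 of these 9 were the peaks of the dmd-4 window itself. The strong regions outside that window had pooled ranks 229, 290, 456, 902 and 1061. Their nearest protein-coding genes were epn-1, F31F6.1, dpf-2, C27C12.1 and mbk-1, in that order. Around dmd-9 the strong regions had ranks 180, 198, 714 and 1000, all outside its window. Beyond the windows dmd-4 thus stood close to dmd-9. In replicate 1 alone 5 regions within 50 kb of dmd-4 were in the top 652, against 0 to 2 around the other members. In replicate 2 alone there were 6, against 0 to 4. These counts include the dmd-4 window, which held those of ranks 111, 221 and 370 in replicate 1. In replicate 2 it held those of ranks 126, 420 and 459.

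The strong regions around dmd-4 lay from 56990 bp downstream of its start to 6686 bp upstream of it. Within 100 kb there were 10 regions within rank 1138, and none lay more than 6686 bp upstream. The peak X:14840949-14841398, 20678 bp downstream of the dmd-4 start, was uneven between the replicates, with rank 5823 in replicate 1 and 168 in replicate 2. A region between dmd-4 and that peak, X:14853491-14853940 at C27C12.1, had a signal of 95.0 at rank 902, with ranks 1529 and 934. Signal from the chromosomal copy and from the transgene cannot be told apart in these lists, and how much flanking DNA the transgene carries was not found in the labels. The part of the transgene copies in the dmd-4 values was not tested.

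**Figure D5:**
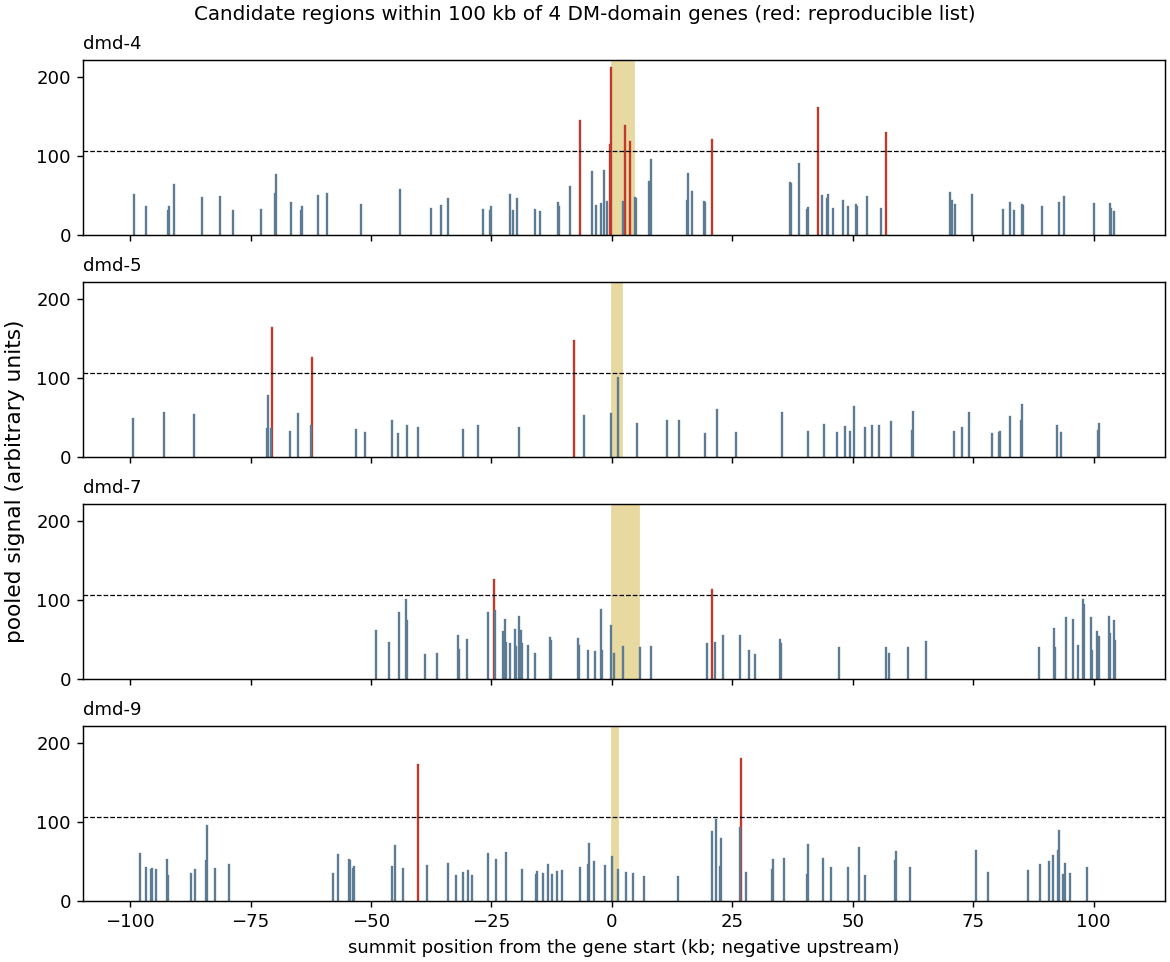
Candidate regions within 100 kb of dmd-4, dmd-5, dmd-7 and dmd-9, by summit position from the gene start in kb (negative upstream) and pooled signal in arbitrary units, with reproducible peaks in red, their lowest signal dashed and the gene shaded. Within 50 kb dmd-4 has 7 reproducible peaks, 4 of them in its own window, dmd-5 has 1, and dmd-7 and dmd-9 have 2 each.

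Exact DM-core matches at the family's own genes were few. The core ACATTGT, known from sites of MAB-3 and DMRT1 and searched on both strands, occurred within 100 bp of 1 of the 47 summits, beside 2.76% of the nuclear candidates, which is no result about the members. The match was in the weak dmd-4 region of rank 14049, with a signal of 42.2. No reproducible peak of dmd-4 held the core within 100 bp of its summit. The weak region overlaps the reproducible intron peak of rank 326, X:14858962-14859411. The match lies inside that peak too, further than 100 bp from its summit. In whole regions the core was at 3 of the 47, a count that includes both of these overlapping dmd-4 regions with their shared match. The 2.76% is for the 201 bases around summits and is not a like comparison for that count. The palindrome shown above was noticed by eye in the strongest dmd-4 region, after the sequence had been seen. It is the longest perfect palindrome of those 201 bases, and the longest in the other 46 regions had 12 bases, in the dmd-4 intron region of rank 326 and the dmd-5 region of rank 771. A palindrome of at least 16 bases lay within 100 bp of 1.73% of the nuclear candidates and 1.4% of the nuclear reproducible peaks, so its length alone is not particular to strong regions. Its 10 middle bases, ACAATATTGT, begin with ACAAT, the first 5 bases of the core's other strand. They occurred within 100 bp of 18 of 29988 nuclear candidates (0.06%), and dmd-4 was the only place among the 643 nuclear reproducible peaks. Since the letters were taken from that dmd-4 region, its match was given in advance, and both counts include it. How often such letters would occur by base content alone was not worked out, so these counts do not show a site particular to dmd-4. No site of DMD-4 itself was searched.

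The 6-mers that are frequent at reproducible peaks elsewhere in these data were also counted at the regions of the family. On either strand, GAGAGA occurred within 100 bp of 0 of the 10 dmd-4 summits and of 10 of the 37 others, beside 15.5% of nuclear candidates and 36.5% of nuclear reproducible peaks. The 6-mer CGCACA was found at 1 of 10 dmd-4 regions, a weak region at rank 19331, and at 5 of all 47, beside 6.14% of candidates and 21.3% of peaks. The 6-mer GTTCGA was found at 0 dmd-4 regions and at 2 of the 47, the dmd-5 region with the tRNA gene and a weak dmd-6 region, beside 7.84% of candidates and 19.1% of peaks. The median GC content of the 201 bases was 36.1% at dmd-4 and 42.3% at the other members, against 39.3% at all nuclear candidates and 47.3% at nuclear reproducible peaks. A missing match says only that these letters were not in the window. With 10 dmd-4 regions, counts of 0 or 1 are too small to read against the shares of all candidates. Only 4 of these 10 regions are reproducible peaks, so the peak shares are not a like comparison.

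Genes that act around the DM-domain factors were described in the same windows. Of 48 genes in 4 lists, 43 had a candidate, beside 75.6% of all protein-coding genes, and 2 had a reproducible peak, beside 5.21%. In the list of sex determination and dosage compensation genes, 2 of 20 had a peak. The gene dpy-28, a condensin subunit of the dosage compensation complex, had a peak of 372.8 (III:10759137-10759376, ranks 19 and 30 in replicates 1 and 2), but this lay 3867 bp upstream and 43 bp from tasp-1. The gene dpy-21, a histone demethylase of the same complex, had a peak of 134.7 (V:17951202-17951651, ranks 292 and 410), 2234 bp upstream and 522 bp from Y59A8B.24. Of the genes without a peak, the strongest candidates were at sdc-2, which brings the dosage compensation complex to the X chromosome, with 106.4 at rank 653, the first rank outside the reproducible list, and at the nuclear receptor gene sex-1, with 100.1 at rank 767. They were followed by xol-1, the switch gene for male fate, with 94.1, and by tra-2, a receptor of the pathway, with 80.8. The gene C15F1.5 had the same strongest signal in its own window as tra-2, so that value is not particular to tra-2. The places of these candidates within the windows are not given here.

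The other 3 lists held no reproducible peak. Of 12 genes of the male tail, its tip and its rays, all 12 had a candidate, and the strongest were at the nuclear receptor gene nhr-25 (86.1) and at lin-41 (82.9), a heterochronic gene. Of 6 yolk protein genes 5 had a candidate, the strongest at vit-6 (76.0) and vit-2 (60.4). Of 10 genes of phasmid and AVG neurons 6 had a candidate, the strongest at the LIM homeobox gene ceh-14 (79.6) and at unc-55 (79.0). The median strongest signals of the 4 lists, 72.2, 59.7, 54.8 and 57.0 in the order given, stood beside 52.7 over all genes with a candidate. These values were not adjusted for window length, and a longer window can hold more regions. The windows of the listed genes ran from 5856 bp at nlp-7 to 29312 bp at tra-1, against a median of 7027 bp over all protein-coding genes. The medians and the counts of genes with a candidate are thus not a like comparison.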

How the data were processed

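DMD-4-GFP ChIP-seq regions of 2 replicates were taken as deposited by the authors, in narrowPeak form for ce11. The deposited signal per region was set by the authors relative to control, and the deposited significance in the pooled and reproducible lists was a -log10 q. Pooled regions came from both replicates together, per the deposited file listing. The aligner, the peak caller and the IDR cutoff are not named in the labels or files. No read totals came with the lists, so the depth per library is unknown. Positions of ce10 were never converted, and only the length of its reproducible list was used.

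Genes came from Ensembl release 115 and sequence from RefSeq, both WBcel235. Ranks are by signal within each list, and 99.7% of pooled candidates were 450 bp wide with the summit at the midpoint. Replicate regions were matched by an overlap of at least 1 bp, taking the best ranked. All members are named, and of the other lists the genes with a reproducible peak, otherwise up to 2 per list with the strongest candidate. The genes sdc-2, sex-1, xol-1 and tra-2 were named after their values were seen. The members, gene lists and searched 6-mers were chosen with earlier results of these data known. No significance test was made. Window and matching steps were run on simulated regions planted with the same window function, which checks the code and not the deposited lists. A planned comparison of the DM-domain proteins was not made. Python 3.11.15, pandas 2.3.3, NumPy 2.4.6 and Matplotlib 3.10.9 were used.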

Additional observations from a re-analysis of the deposited data

How the results depend on the processing

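The 47 regions numbered 28 with 1000 bp upstream, and between 34 and 62 under the other alternatives. The 4 reproducible peaks numbered 7 with 10000 bp upstream, an alternative added after seeing the data, and 3 to 5 in the other alternatives run; dmd-4 held at least 3 in each. With 10000 bp upstream 3 members had a peak, and the ratio of the strongest dmd-4 signal to that of the other members was 1.44. The number of members with a peak was 2, dmd-5 being the second, with pooled ranks down to the length of the ce10 list, and ran from 1 to 2 when either replicate was left out. The signal ratio of dmd-4 to the strongest other member, 2.12, ran from 2.00 to 2.03 when either replicate was left out. It was 2.41 without regions near structural RNA genes, an alternative added after seeing the data, as was merging overlapping regions (39 regions and 3 peaks). The DM core was at 0 regions within 50 bp of the summit and at 3 in whole regions, where overlapping dmd-4 regions share a match. With 1000 bp upstream 0 genes of the 4 lists had a peak. Matching by 50% overlap left 28 regions in both replicates. No paired analysis was possible because there was 1 group. Unknown depth limits what an absent candidate shows.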
